A study of Mus musculus with 6 samples.

Results

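The genes described here encode 10 RNA-binding proteins that neurons use to regulate splicing and the fate of their mRNAs: Rbfox1, Rbfox2 and Rbfox3, Nova1 and Nova2, Celf4, Elavl2, Elavl3 and Elavl4, and Ptbp2. They were taken by name from the deposited expression table of 24419 genes. All 10 were found there, and all 10 were among the 14523 genes that entered the test, those averaging 1 CPM or more. CPM gives the reads of a gene relative to all reads assigned to genes in its library, and the authors scaled it further by a size factor per library.

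The RNA came from cells of the mouse cerebral cortex next to an infarct, sorted for Thy1 on the surface and against ACSA2, CD31, CD45 and O4, which mark astrocytes, endothelium, leukocytes and the oligodendrocyte lineage. The labels call the sorted cells neurons. All animals were wild type male C57BL/6N mice, of an age the sources used here do not give. In every animal the middle cerebral artery was closed for 60 min, and tissue was taken on day 4. The 15-HETrE group received intravenous 15-HETrE, a hydroxylated fatty acid, as 600 ng in 150 µL of phosphate-buffered saline 24, 48 and 72 h into the stroke. The vehicle group received injections without the lipid at the same times. Each group had 3 libraries: 15-HETrE 1, 15-HETrE unnumbered and 15-HETrE combined, and vehicle 1, vehicle 2 and vehicle combined, named here after the columns of the table. Values of single libraries are given below in that order. Nothing in the labels ties each library to an animal of its own, so p-values reflect the spread of these libraries, part of which may be technical.

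The libraries held 5405245 to 22558400 reads, and vehicle combined was the shallowest. Vehicle 1, vehicle 2 and 15-HETrE 1 shared a prefix in their column names, 15-HETrE unnumbered had another, and the combined libraries had none; the sources used here do not give what the prefixes and the word combined mean. Vehicle 1 and vehicle 2 were the most alike pair (r = 0.970 over genes, which are no replicates), while the others lay between 0.817 and 0.919. No pair of libraries agreed within sampling noise, so each library was counted once. The 10 neuron markers Map2, Tubb3, Snap25, Syt1, Syn1, Stmn2, Nefl, Nefm, Uchl1 and Eno2 had reads in every library, with summed levels of 3262 to 6240 CPM in 15-HETrE and 1976 to 3450 CPM in vehicle libraries. The 8 oligodendrocyte markers, although the sort selected against O4, summed to 16088 to 31468 CPM in 15-HETrE and 15021 to 22591 CPM in vehicle libraries. Fewer cells of a type and less RNA per cell cannot be told apart in such bulk libraries.

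Neurons splice their transcripts differently from other cells, and much of that program is set by a small number of RNA-binding proteins. Rbfox proteins bind UGCAUG in introns and promote or repress the neighbouring exon depending on which side they bind. Nova proteins bind clusters of short UCAU-like motifs in transcripts of synaptic proteins, Elavl proteins (also called Hu proteins) bind U-rich stretches and stabilise mRNAs as well as alter splicing, and Celf4 binds mRNAs of synaptic proteins. Ptbp2 holds back exons of mature neurons during development and takes the place of its relative Ptbp1 when progenitors become neurons. Gene-level reads show how much of each regulator's transcript was present, not how its targets were spliced.

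As a set, the regulators averaged higher in 15-HETrE than in vehicle libraries, but no member passed the test and the libraries of both groups overlapped for most. The log2 fold change was positive for 9 of 10 members, with a median of 0.61, where it was positive for 51% of all genes tested, whose median was 0.02. Rbfox3, the gene of the neuronal nuclear antigen NeuN, and Nova1 were the members whose libraries did not overlap, and both were higher in 15-HETrE. Rbfox2 and Ptbp2 had nearly equal means in both groups. Fold changes are 15-HETrE minus vehicle on the log2(CPM + 1) scale, and the test was limma's with Benjamini-Hochberg adjustment over all 14523 genes.

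At an adjusted p of 0.05, 0 of 10 members passed in limma, against 0% of all genes in either direction, and edgeR (quasi-likelihood test, recovered reads) called 0 members and 0% of all genes. DESeq2 also called 0 members, against 0.241% of all genes higher and 0.895% lower. At an unadjusted p under 0.05, 3 members were higher (Rbfox1, Rbfox3 and Nova1) and 0 lower in limma, against 4.27% of all genes higher and 5.23% lower. The libraries did not overlap for 2 members, both higher, against 6.84% of all genes higher and 8.32% lower. The members were read with 64 to 6503 reads per library, so the counting error of a single value was at most 12.5%, reached by Elavl2 in vehicle combined, and at most 7.31% for the other members.

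**Figure D1:**
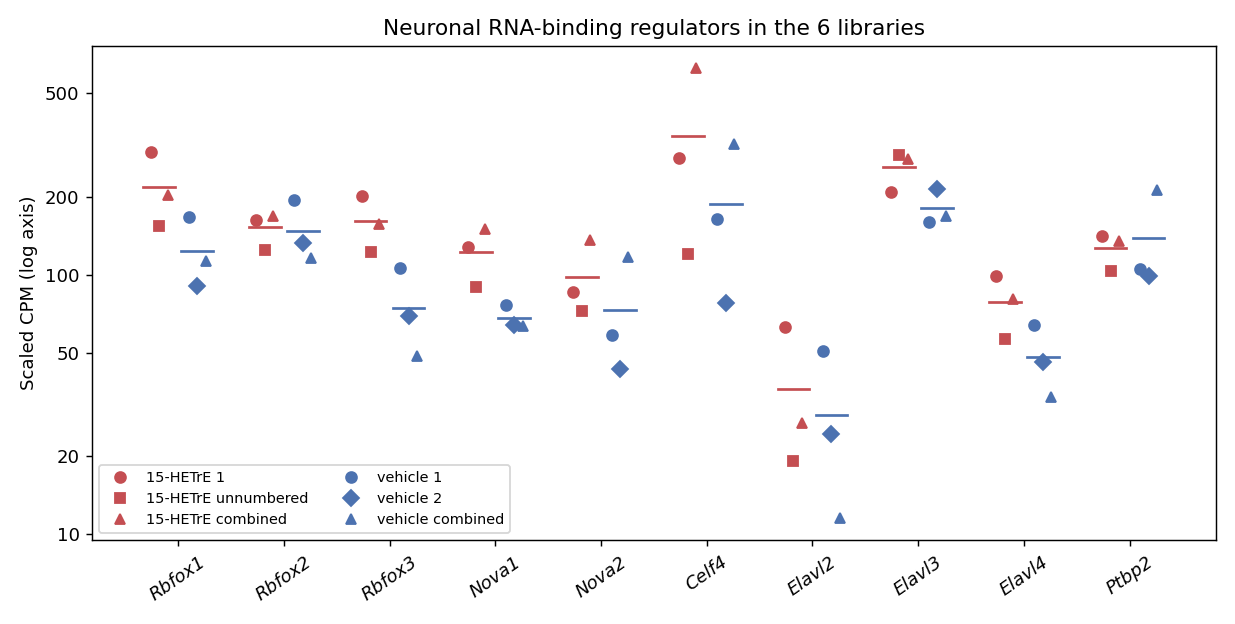
Level of each of the 10 regulators in scaled CPM (log axis) in the 3 15-HETrE libraries (red, left) and the 3 vehicle libraries (blue, right). Symbols are single libraries and horizontal lines are group means. The colours separate fully for Rbfox3 and Nova1 and mix for the other 8 genes.

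In the Rbfox family the fold change was largest for Rbfox3, while Rbfox1 had the highest level per length. Rbfox3 (ENSMUSG00000025576.17, chromosome 11, 118489762 to 118911597, GRCm38) had 202, 122 and 157 CPM in the 15-HETrE libraries and 106, 68.9 and 48.6 CPM in the vehicle libraries. Every 15-HETrE library thus lay above every vehicle library, the nearest being 15-HETrE unnumbered and vehicle 1. The means were 160 ± 39.8 CPM in 15-HETrE and 74.5 ± 29.1 CPM in vehicle libraries (SD, n = 3 each), with a log2 fold change of 1.14 (SE 0.33, 95% interval 0.41 to 1.87, adjusted p 0.400, limma). Of all genes tested, 4.28% had a larger fold change.

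Rbfox1, a regulator of exons in ion channel and synaptic transcripts whose gene spans 1526 kb (chromosome 16, 5885355 to 7411526), had 296, 154 and 202 CPM in the 15-HETrE libraries, against 167, 90.2 and 113 CPM in the vehicle libraries. The groups overlapped because 15-HETrE unnumbered lay under vehicle 1. Its log2 fold change was 0.80 (SE 0.32, 95% interval 0.10 to 1.51, adjusted p 0.489, limma). Rbfox2, the family member that many cell types outside the nervous system also express (chromosome 15, 77078990 to 77307004), had 163, 125 and 169 CPM in 15-HETrE against 195, 132 and 116 CPM in vehicle libraries. The groups were interleaved, with vehicle 1 the highest of all, and the log2 fold change was 0.07 (95% interval -0.53 to 0.67, adjusted p 0.951, limma). Its sign turned without 15-HETrE combined (-0.01) and without vehicle combined (-0.09).

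The Nova genes differed in how far the libraries separated. Nova1 (chromosome 12, 46694517 to 46818929), which encodes an antigen of human paraneoplastic ataxia, had 128, 89.8 and 149 CPM in the 15-HETrE libraries, against 76.6, 63.7 and 63.5 CPM in the vehicle libraries. The vehicle libraries were close together and all under the 15-HETrE libraries. The means were 122 ± 30.1 CPM in 15-HETrE and 67.9 ± 7.52 CPM in vehicle libraries (SD, n = 3 each), and the log2 fold change was 0.81 (SE 0.27, 95% interval 0.21 to 1.42, adjusted p 0.454, limma). Nova2 (chromosome 7, 18925888 to 18965319), the family member that predominates in the cortex, had 86.0, 72.1 and 136 CPM in 15-HETrE against 58.4, 43.0 and 117 CPM in vehicle libraries. The combined library was the highest of each group, so vehicle combined lay above both other 15-HETrE libraries. The log2 fold change of Nova2 was 0.50 (95% interval -0.37 to 1.37, adjusted p 0.706, limma), and it was 0.24 without 15-HETrE combined, 0.19 without vehicle 2 and 0.90 without vehicle combined. An antisense gene covers 31.7% of the exon bases of Nova2, and the sources used here do not say whether reads were counted by strand.

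Celf4 (chromosome 18, 25477632 to 25754157), a regulator whose loss causes seizures in mice, varied most between libraries. It had 281, 120 and 624 CPM in the 15-HETrE libraries, and 164, 77.7 and 319 CPM in the vehicle libraries. As for Nova2, the combined library was the highest of each group. Celf4 differed by a log2 fold change of 0.79 (SE 0.60, 95% interval -0.56 to 2.13, adjusted p 0.700, limma), and it ranged from 0.20 without 15-HETrE combined and 0.27 without vehicle 2 to 1.28 without vehicle combined and 1.39 without 15-HETrE unnumbered. The combined libraries also stood apart in astrocyte markers, all 8 of which had reads in every library. The mean level of that list was 6.80, 6.24 and 9.12 in the 15-HETrE libraries and 5.94, 5.33 and 8.21 in the vehicle libraries (log2 scale), and its summed level ranged from 1414 to 20749 CPM in 15-HETrE and from 665 to 7687 CPM in vehicle libraries. Astrocyte markers were not alone in this. The summed level of the 6 excitatory neuron markers was 2294, 1373 and 5592 CPM in the 15-HETrE libraries and 1136, 556 and 2049 CPM in the vehicle libraries. Their mean level was 7.60, 6.84 and 7.47 in 15-HETrE and 6.89, 6.01 and 6.33 in vehicle libraries (log2 scale), highest in the libraries numbered 1. The part of astrocytes and of excitatory neurons in the levels of Celf4 and Nova2 was not tested.

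**Figure D2:**
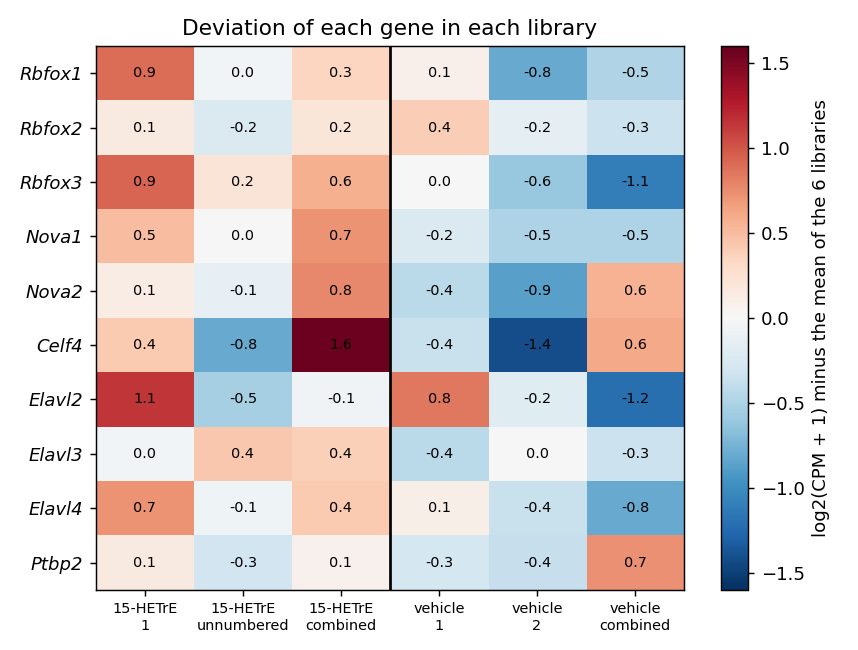
Level of each regulator in each library as log2(CPM + 1) minus its mean over the 6 libraries, with 15-HETrE libraries left of the line and vehicle libraries right of it. Rbfox3 is above its mean in all 3 15-HETrE libraries, Celf4 and Nova2 are above theirs in both combined libraries, and Ptbp2 is highest in vehicle combined.

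The neuronal Elavl genes are switched on as neurons leave the cell cycle, and Elavl3 was their most abundant member. Elavl3 (chromosome 9, 22015005 to 22052023), which encodes HuC, had 207, 290 and 280 CPM in the 15-HETrE libraries, against 159, 213 and 169 CPM in the vehicle libraries. A single pair of libraries crossed, vehicle 2 lying just above 15-HETrE 1. Elavl3 differed by a log2 fold change of 0.52 (SE 0.25, 95% interval -0.03 to 1.07, adjusted p 0.554, limma). Elavl3 was the only member at its highest in 15-HETrE unnumbered.

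Elavl4 (chromosome 4, 110203722 to 110351909), which encodes HuD, a stabiliser of the growth cone mRNA Gap43, had 98.6, 56.5 and 80.3 CPM in 15-HETrE against 63.9, 46.1 and 33.6 CPM in vehicle libraries. The groups overlapped through 15-HETrE unnumbered and vehicle 1, and the log2 fold change was 0.71 (SE 0.33, 95% interval -0.03 to 1.45, adjusted p 0.548, limma). Elavl2 (chromosome 4, 91250763 to 91400785), which encodes HuB, was the least abundant member, with 63.0, 19.0 and 26.8 CPM in 15-HETrE against 50.7, 24.2 and 11.5 CPM in vehicle libraries. The libraries numbered 1 were the highest of both groups and the rest interleaved. Its log2 fold change was 0.38 (95% interval -0.92 to 1.67, adjusted p 0.857, limma), with the sign turned without 15-HETrE 1 (-0.10) and without vehicle combined (-0.13).

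Ptbp2 (chromosome 3, 119718742 to 119784466) had 141, 103 and 134 CPM in the 15-HETrE libraries, against 105, 98.8 and 213 CPM in the vehicle libraries. Vehicle combined was the highest of all libraries and the other vehicle libraries lay at the low end. The log2 fold change was -0.06 (95% interval -0.77 to 0.66, adjusted p 0.963, limma), and it was 0.30 without vehicle combined and 0.08 without 15-HETrE unnumbered.

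Its relative Ptbp1, the general repressor of neuronal exons that is low in neurons and present in most other cells, is not among the 10 but completes the pair. Ptbp1 (chromosome 10, 79854427 to 79864771) had 49.0, 104 and 51.2 CPM in the 15-HETrE libraries, against 190, 196 and 115 CPM in the vehicle libraries. All 15-HETrE libraries lay under all vehicle libraries, with 15-HETrE unnumbered close to vehicle combined. This gave a log2 fold change of -1.33 (SE 0.35, 95% interval -2.11 to -0.56, adjusted p 0.394, limma), which did not pass either. In limma with weights for the libraries, estimated from the same data, it passed at -1.80 (adjusted p 0.000271), where 9.41% of all genes were called lower. Genes on the other strand overlap the exon bases of Ptbp1, with Gm17134 covering 9.22%, E130317F20Rik 6.22% and Plppr3 5.30% of them.

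The log2 ratio of Ptbp2 to Ptbp1, which is known to increase as progenitors become neurons, was 1.51, -0.01 and 1.37 in 15-HETrE 1, unnumbered and combined. In vehicle 1, vehicle 2 and vehicle combined it was -0.86, -0.98 and 0.87. The ratio of vehicle combined thus lay above that of 15-HETrE unnumbered. The mean was 0.96 ± 0.84 in 15-HETrE and -0.32 ± 1.04 in vehicle libraries (SD, n = 3 each), a difference of 1.28 that did not pass (p = 0.2, exact two-sided permutation test). With 3 against 3 libraries the smallest p possible is 0.1. When a library was left out, the difference ranged from 0.95 without vehicle 2 to 1.88 without vehicle combined. None of these passed (p from 0.2 to 0.4, exact two-sided permutation test).

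**Figure D3:**
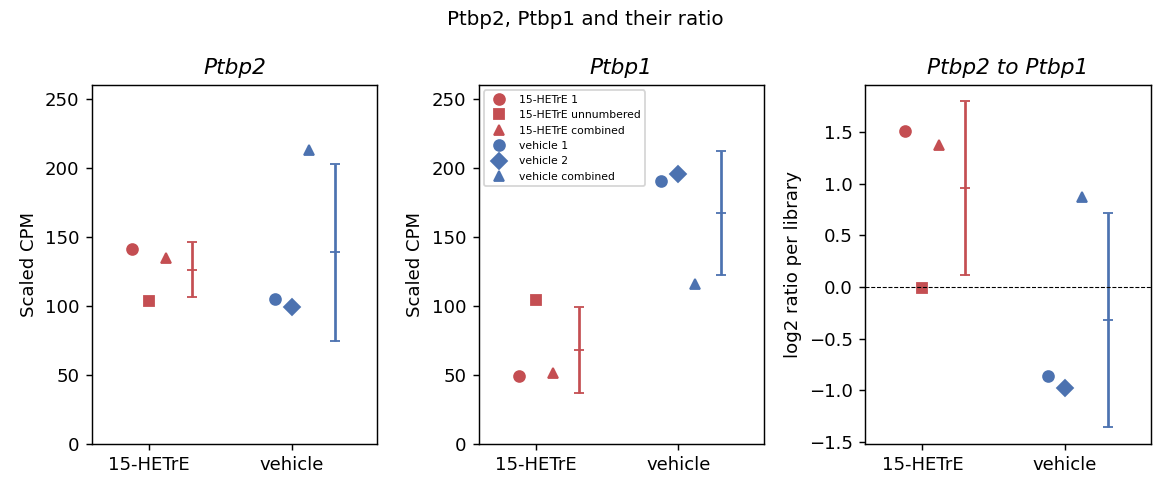
Levels of Ptbp2 and Ptbp1 in scaled CPM and the log2 ratio of Ptbp2 to Ptbp1 in each library, 15-HETrE left and vehicle right, with the mean and SD of the 3 libraries beside the points. Ptbp1 separates the groups, from 49.0 to 104 CPM in 15-HETrE and from 115 to 196 CPM in vehicle libraries, while Ptbp2 and the ratio overlap.

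Some lists of markers of other cells also averaged lower in 15-HETrE libraries, as Ptbp1 did. Dividing-cell markers, 5 of 6 of which had reads in every library while Cdk1 was at 0 in both combined libraries, summed to 98.0 to 165 CPM in 15-HETrE and 417 to 560 CPM in vehicle libraries. Fibroblast markers, all 7 with reads in every library, summed to 1220 to 2166 CPM in 15-HETrE and 1471 to 12580 CPM in vehicle libraries. Their mean level was 5.56, 8.07 and 3.65 in the 15-HETrE libraries and 10.4, 10.3 and 4.28 in the vehicle libraries (log2 scale). One of them, Pdgfra, is also in the list of oligodendrocyte precursor markers, so this list does not mark fibroblasts alone. Pericyte markers, all 5 with reads in every library, summed to 137 to 401 CPM in 15-HETrE and 735 to 897 CPM in vehicle libraries. The sums of the dividing-cell and pericyte markers thus did not overlap between the groups, as the levels of Ptbp1 did not. Those of fibroblast, endothelial, microglia and oligodendrocyte precursor markers overlapped. Within the combined pair Ptbp1 differed by -1.16, the mean log2 level of fibroblast markers by -0.63, that of pericyte markers by -1.02 and that of dividing-cell markers by -1.80. Between 15-HETrE 1 and the mean of vehicle 1 and vehicle 2, Ptbp1 differed by -1.96, fibroblast markers by -4.78, pericyte markers by -2.43 and dividing-cell markers by -2.00. The part of fibroblasts, pericytes and dividing cells in the level of Ptbp1 was not tested.

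**Figure D4:**
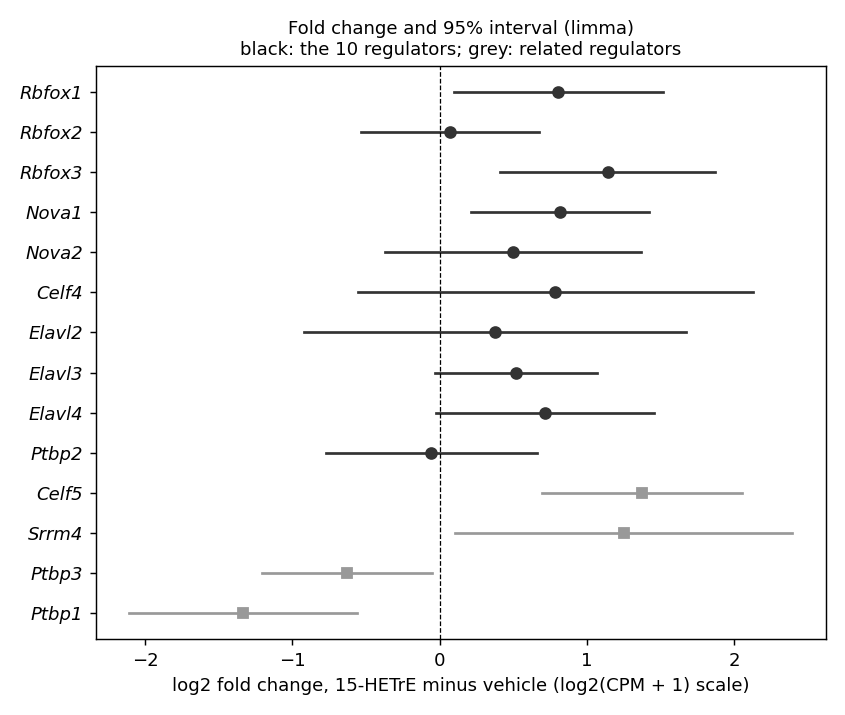
The log2 fold change (15-HETrE minus vehicle) of the 10 regulators (black) and of 4 related regulators (grey), with 95% intervals from limma. Among the 10, the intervals of Rbfox1, Rbfox3 and Nova1 lie above 0, and Rbfox2 and Ptbp2 are centred near 0, although no gene passes after adjustment over all genes.

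The members were also set against the neuron markers of the same libraries. The mean level of the 10 regulators was 7.23, 6.59 and 7.23 in 15-HETrE 1, unnumbered and combined, and 6.70, 6.21 and 6.44 in vehicle 1, vehicle 2 and vehicle combined (log2 scale). The mean level of the 10 neuron markers was 8.19, 7.55 and 7.85 in the 15-HETrE libraries and 7.58, 6.65 and 6.90 in the vehicle libraries. The regulators averaged 0.57 higher and the neuron markers 0.82 higher in 15-HETrE, and in both lists 15-HETrE unnumbered lay below vehicle 1. Relative to the neuron markers, the regulators stood at -0.96, -0.96 and -0.61 in the 15-HETrE libraries and at -0.88, -0.44 and -0.46 in the vehicle libraries, which overlapped. Taken as reads, the members held 0.172%, 0.119% and 0.181% of the 15-HETrE libraries and 0.109%, 0.0893% and 0.124% of the vehicle libraries.

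Differences within the groups of column names went mostly the same way. Between 15-HETrE 1 and the mean of vehicle 1 and vehicle 2, which share a prefix, Rbfox1 differed by 1.26, Rbfox3 by 1.23, Nova1 by 0.86, Celf4 by 1.31 and Elavl4 by 0.85 on the log2 scale, while Rbfox2 differed by 0.02 and Elavl3 by 0.17. Within the combined pair the same genes differed by 0.83, 1.67, 1.22, 0.96, 1.23, 0.54 and 0.73. For Nova2 the difference was 0.77 within the prefix but 0.21 in the combined pair, and for Elavl2 it was 0.83 and 1.15. Ptbp2 was the member whose sign differed, at 0.47 within the prefix and -0.66 within the combined pair. Each of these rests on 1 library of 15-HETrE, so none has a replicate check, and 15-HETrE unnumbered enters neither. With the prefix as a batch term 0 members were called, against 0.00689% of all genes higher and 0.0482% lower, and the median over the members was 0.99. In that fit too 15-HETrE unnumbered, alone with its prefix, does not enter the difference between the groups.

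Weighting the libraries by how well they fit their group changed the calls. The weights, estimated from the same data, were 3.16, 0.51 and 0.44 for the 15-HETrE libraries and 1.82, 3.75 and 0.21 for the vehicle libraries. The weighted 15-HETrE level thus rested mostly on 15-HETrE 1, and the vehicle level on vehicle 1 and vehicle 2, which share its prefix. With these weights 6 members were called higher (limma, adjusted p from 0.00324 for Rbfox3 to 0.0265 for Elavl4). They were Rbfox1, Rbfox3, Nova1, Nova2, Celf4 and Elavl4. Elavl3, at 0.52 without weights, stood at 0.21 with them (adjusted p 0.521, limma). With the same weights 7.29% of all genes were called higher and 9.41% lower. Of the members, 7 kept a positive fold change under all 19 alternatives tried, and the exceptions were Rbfox2, Elavl2 and Ptbp2.

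Between genes, levels can be compared only per length, here in CPM per kb of annotated exon sequence. In 15-HETrE libraries the order of these levels was Rbfox1 (49.4 ± 16.5), Celf4 (39.8 ± 30.0), Elavl3 (37.6 ± 6.56), Rbfox3 (27.6 ± 6.83), Rbfox2 (18.7 ± 2.94), Elavl4 (14.6 ± 3.92), Nova1 (14.0 ± 3.44), Ptbp2 (13.8 ± 2.21), Nova2 (11.7 ± 3.99) and Elavl2 (4.36 ± 2.82; SD, n = 3). In vehicle libraries the order was Rbfox1 (28.1 ± 9.02), Elavl3 (26.2 ± 4.22), Celf4 (21.8 ± 14.3), Rbfox2 (18.1 ± 5.12), Ptbp2 (15.1 ± 6.98), Rbfox3 (12.8 ± 5.01), Elavl4 (8.89 ± 2.82), Nova2 (8.69 ± 4.65), Nova1 (7.77 ± 0.86) and Elavl2 (3.47 ± 2.40; SD, n = 3). In each group 8 of 9 neighbours in the order differed by less than the sum of their SDs, the exception being the step down to Elavl2. Rbfox3 stood at place 4 in 15-HETrE and at place 6 in vehicle libraries. No stretch of 50 bases was shared between annotated transcripts of Rbfox1, Rbfox2 and Rbfox3, of Nova1 and Nova2, of Elavl2, Elavl3 and Elavl4, or of Ptbp1 and Ptbp2.

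Other RNA-binding splicing regulators were split evenly in direction, though several of the lower ones had few reads in some libraries. Of the 21 listed, 20 were tested (Esrp1 averaged under 1 CPM), 10 with a positive and 10 with a negative log2 fold change and a median of 0.02, and 0 passed in limma. Among the lower ones Mbnl3, Celf6, Khdrbs2, Rbm4 and Esrp2 averaged 2.99 to 6.41 CPM, with 0 to 6 reads in their lowest library. Of the higher ones this held for Rbm24 (6.69 CPM, lowest library 0 reads). The even split thus leans on genes of low level. Celf5, a brain-enriched relative of Celf4, had 152, 112 and 137 CPM in the 15-HETrE libraries and 75.4, 38.9 and 44.1 CPM in the vehicle libraries, without overlap. Its log2 fold change was 1.37 (SE 0.31, adjusted p 0.334, limma). Celf5 passed in DESeq2 (adjusted p 0.0204), which called 0.241% of all genes higher. Srrm4, which drives the inclusion of neuronal microexons, had 34.1, 31.6 and 27.4 CPM in 15-HETrE and 23.0, 14.9 and 5.40 CPM in vehicle libraries, again without overlap, with vehicle combined resting on 30 reads. Ptbp3, another relative of Ptbp2, had 93.7, 138 and 110 CPM in 15-HETrE and 184, 206 and 141 CPM in vehicle libraries, and was thus lower in each 15-HETrE library, with a log2 fold change of -0.63 (adjusted p 0.504, limma). Celf5 and Srrm4 were the listed genes without overlap that were higher, and Ptbp1 and Ptbp3 those that were lower. That is 2 of 20 in each direction, near the shares over all genes of 6.84% higher and 8.32% lower. In limma with library weights all 4 passed, with an adjusted p of 0.00155 for Celf5, 0.0484 for Srrm4, 0.000271 for Ptbp1 and 0.00338 for Ptbp3. They are also the 4 of smallest p of the list in the same libraries, so their passing is not independent of that choice. With the same weights 7.29% of all genes were called higher and 9.41% lower.

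Transcripts known as targets of these proteins were tested for their total level. Of 12 such genes, 9 had a positive log2 fold change, with a median of 0.67, and 0 passed in limma. The fold change was positive for 51% of all genes tested. Among the 10 neuron markers it was positive for 9, with a median of 0.84, so the targets did not stand out from neuronal genes. With library weights the 4 named here, Scn8a, Nrcam, Snap25 and Grin1, passed in limma (adjusted p from 0.00724 for Scn8a to 0.0239 for Grin1). These 4 were picked for the smallest p of the list in the same libraries, so their passing is not independent of that choice. The weights called 7.29% of all genes higher and 9.41% lower. Scn8a, a sodium channel whose mRNA Celf4 binds, had 455, 379 and 280 CPM in 15-HETrE and 285, 168 and 177 CPM in vehicle libraries, which crossed by a single pair. Nrcam, a neuronal adhesion molecule with alternatively spliced exons, had 535, 445 and 523 CPM in 15-HETrE and 396, 222 and 414 CPM in vehicle libraries, without overlap. Snap25, a protein of vesicle fusion, had a log2 fold change of 0.86 (adjusted p 0.526, limma), and Grin1, a subunit of NMDA receptors, of 0.72 (adjusted p 0.574, limma). Snap25 stood at 0.48 without 15-HETrE 1, and Grin1 at 0.46 without 15-HETrE 1 and at 0.45 without vehicle combined. Snap25 is also a neuron marker here, so these lists share a gene.

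The genes whose levels followed the mean of the members most closely over the 6 libraries, among 7797 other genes averaging 20 CPM or more, were Calm3 (Pearson r = 0.995), which encodes calmodulin, Chd5 (0.994), a chromatin remodeller, Pld3 (0.993), Myo9a (0.993), an unconventional myosin, and Cntnap1 (0.991), a protein of the axonal membrane beside the node of Ranvier. Calm3 had 508, 304 and 496 CPM in the 15-HETrE libraries and 357, 222 and 267 CPM in the vehicle libraries. For Rbfox3 alone, Ralyl (0.992) and Lingo1 (0.990) were among the closest. Lingo1, a membrane protein of neurons, had 273, 171 and 180 CPM in 15-HETrE and 120, 70.9 and 52.0 CPM in vehicle libraries. With 6 libraries and this many candidates, high coefficients describe the libraries and are not a test.

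Start regions are shown because most members averaged higher together, to let their sequences be compared. RefSeq start windows on GRCm38.p6 were found for 8 of 10 members, and not for Rbfox2 and Celf4. Shown are the 250 bases before the start, on the strand of the gene, for members with only 1 window in all. That window also had to begin a GENCODE transcript and hold no exon bases. These are Rbfox3 (chr11:118761042-118761291, minus strand), Nova2 (chr7:18925638-18925887, plus strand) and Elavl3 (chr9:22052024-22052273, minus strand). Rbfox1, Elavl2 and Elavl4 had more than 1 window and are not shown. Capitals mark matches, on either strand, to the GC box GGGCGG, the E-boxes CAGCTG and CATCTG, the TATA box TATAAA, the cyclic AMP response element TGACGTCA, and TTCAGCACC and GGACAGC, both parts of the site of REST, a repressor of neuronal genes in other cells.
Rbfox3: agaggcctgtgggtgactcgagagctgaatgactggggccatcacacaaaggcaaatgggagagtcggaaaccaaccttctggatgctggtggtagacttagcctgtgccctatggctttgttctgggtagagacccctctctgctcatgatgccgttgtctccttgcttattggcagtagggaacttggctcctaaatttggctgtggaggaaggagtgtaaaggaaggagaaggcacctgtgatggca
Nova2: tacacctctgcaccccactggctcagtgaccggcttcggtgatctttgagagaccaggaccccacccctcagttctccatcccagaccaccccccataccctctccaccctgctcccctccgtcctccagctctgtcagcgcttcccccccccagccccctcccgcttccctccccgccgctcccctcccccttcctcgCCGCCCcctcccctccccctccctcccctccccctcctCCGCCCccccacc
Elavl3: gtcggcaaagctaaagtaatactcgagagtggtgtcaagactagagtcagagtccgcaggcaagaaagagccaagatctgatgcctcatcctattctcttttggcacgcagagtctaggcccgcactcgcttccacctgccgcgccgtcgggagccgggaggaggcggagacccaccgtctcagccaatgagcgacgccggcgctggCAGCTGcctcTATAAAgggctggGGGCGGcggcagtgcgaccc

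The window of Rbfox3 held none of these motifs and had 3 CpG dinucleotides and a GC content of 52.8%, against a median of 6 CpG and 52.4% over all 32851 windows. That window precedes an internal start, as the annotated gene begins at 118911597 on the minus strand. The windows of Nova2 and Elavl3 directly precede the annotated start of their genes. Nova2 held 2 GC boxes, which 32.7% of all windows hold at least once, and had a GC content of 71.2% and 10 CpG. Elavl3 held 1 CAGCTG (13.0% of windows), 1 TATAAA (12.4%) and 1 GGGCGG, had 20 CpG, and was thus unlike Rbfox3 in base composition. CATCTG occurs in 14.4% of windows, GGACAGC in 5.28%, TGACGTCA in 1.55% and TTCAGCACC in 0.301%, and none of the 3 members shown has any of these. These matches describe letters in a window and not bound sites. Rbfox3 and Nova1 were the members without overlap between groups, and the window of Nova1 is not shown because it covers annotated exon bases.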

How the data were processed

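Gene expression was measured by RNA-seq in 6 libraries of sorted cortical cells, 3 per treatment. Per the labels' protocols, tissue was digested with pronase for 75 min and libraries were made with a low-input kit (Ovation SoLo). The submitters' processing notes name the mm10 genome with the tools HISAT2, featureCounts, Trimmomatic and edgeR, without versions, strand setting or annotation. The table deposited by the authors holds a signal, CPM multiplied by a scaling factor in each column: the columns do not sum to equal totals (from 960982 in vehicle 2), and 100% of the values in every column are whole multiples of the smallest value (tolerance 1e-04 reads). Reads were recovered from these steps. The number of other columns was 0.

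Libraries were grouped by column names. The planned test assumed CPM and was applied to the scaled CPM: limma 3.58.1 in R 4.3.3 on log2(CPM + 1) with a variance trend, two-sided, for genes averaging 1 CPM or more. This scale understates changes of low genes. The Ptbp2 to Ptbp1 ratio was tested by exact permutation. Alternatives were other pseudocounts, filters, scalings and library weights, edgeR 4.0.16 and DESeq2 1.42.0 on recovered reads, a prefix term, and leaving out libraries. The fits were tested on simulated counts. GENCODE M21 gave positions on GRCm38, which is mm10. The genes named are the 10 members, Ptbp1, per list the 4 genes of smallest p, and the genes most like the members' mean (5) and Rbfox3 (3), of which 1 is not reported here. Members and lists were chosen with earlier results of these data known.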

Additional observations from a re-analysis of the deposited data

How the results depend on the processing

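Under 19 alternatives the count of members called was 0 higher and 0 lower, except that library weights called 6 higher, where limma called 1059 genes higher and 1366 lower over all genes. Over all genes limma called 0 in the fit reported, DESeq2 called 35 higher and 130 lower, leaving out vehicle combined gave 0 and 45, leaving out both combined libraries 0 and 75, and the prefix as a batch term 1 and 7. The median over the members was 0.61 and ranged from 0.48 to 0.85 when a library was left out. It was 0.99 with the prefix term, where 15-HETrE unnumbered, alone with its prefix, does not enter the difference. Of 190 member values, 174 kept direction and side of the threshold, 6 passed newly and 10 turned. With library weights Ptbp2 stood at 0.38. Without both combined libraries Rbfox2 stood at -0.17, Elavl2 at -0.012 and Ptbp2 at 0.25. When a library was left out, Rbfox2 ranged from -0.088 to 0.28, Elavl2 from -0.13 to 0.89 and Ptbp2 from -0.25 to 0.30, and the difference in the Ptbp2 to Ptbp1 ratio from 0.95 to 1.88, with exact p from 0.2 to 0.4. The causes were not tested. Scaling moved the median of all genes by less than 0.1. No paired analysis was possible because only the number 1 occurs in the column names of both groups. With 3 libraries a group and a spread of this size, the intervals of single members cover differences in either direction for most.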
